A study of Mus musculus with 6 samples.

Results

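Transcript levels of the 5 transmembrane mucin genes *Muc1*, *Muc3*, *Muc4*, *Muc13* and *Muc20* were compared between the colons of mice prone to obesity (OP) and mice resistant to it (OR). The members were the genes of the deposited expression table that carried these symbols, and all 5 were found among its 17778 genes. RNA sequencing had been done on 6 colon samples, 3 from OP and 3 from OR mice, numbered 1 to 3 in each group and taken here as separate mice. All 6 were wild-type C57BL/6J mice given a high-fat diet with 60% fat for 16 weeks, to the age of 21 weeks. OP mice were those with the greatest weight gain on this diet and OR mice those with the smallest, so both groups carried the same genotype and diet and differed in the outcome by which they had been picked. A group on normal chow was not analysed here, and differences between OP and OR mice therefore do not show the effect of the diet itself.

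Transmembrane mucins are long glycoproteins anchored in the apical membrane of epithelial cells. Their extracellular part is densely covered with O-linked sugars and projects from the microvilli as the glycocalyx, the layer that lies beneath the secreted mucus gel built from MUC2. Their cytoplasmic tails bind scaffold and signaling proteins, and their extracellular domains can be shed by proteases. *Muc13* and *Muc3* encode the main transmembrane mucins of the intestinal surface epithelium, *Muc4* encodes a very large mucin that associates with the receptor ERBB2, *Muc1* encodes a mucin widespread in glandular epithelia whose tail binds beta-catenin, and *Muc20* encodes a small mucin that associates with the receptor MET.

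Levels are given as FPKM, a fragment count scaled to the length of the transcript and the size of the library, so levels can be compared between genes. The FPKM of all genes summed to between 585350 and 600028 per mouse, and 16287 to 16619 genes had a value above 0. The read depth behind these values is unknown, and no counting interval was computed. The epithelial genes *Lgals4* and *Krt8* stood at 3033 to 4428 FPKM and at 2434 to 3649 FPKM over the 6 mice, so all 6 samples held abundant epithelium. OP 2 stood apart in genes that mark position along the gut as background. *Hoxb13* was at 46.9 FPKM in OP 2 and at most 1.29 in the other mice, *Hoxa13* at 29.5 FPKM against at most 3.58, and *Hoxb6* at 6.11 FPKM against a range from 40.0 to 101.6 (all chosen after their values were seen). The segment of the colon is not given in the labels, and the part of the sampled position in any result was not tested. Results that OP 2 moved are therefore also given without it. OP 1 also differed from the other mice over all genes tested. Its median correlation with them was 0.961, beside 0.962 for OP 2 and 0.974 to 0.977 for the other mice. Sample weights in an alternative fit were 0.33 for OP 1 and 1.25 for OP 2. Counts and medians of the lists other than the members are not given without OP 1. Counts of list genes that were highest or lowest in a given mouse are given without the share over all genes. They therefore do not separate a trait of a list from a general deviation of that mouse.

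None of the 5 transmembrane mucins differed between OP and OR mice by the test across all genes. *Muc13* and *Muc3* were abundant in every mouse, *Muc4* was low and varied 6.56-fold between mice, and *Muc1* and *Muc20* were near the bottom of the measured range. The mean of *Muc13* was 1053 ± 327 FPKM in OP mice and 853 ± 148 FPKM in OR mice (SD, n = 3), and that of *Muc3* was 663 ± 221 FPKM and 538 ± 139 FPKM. OP and OR ranges overlapped for each of the 5 genes. In whole colon RNA, fewer cells of a type and less RNA per cell cannot be told apart.

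The test was limma-trend on log2(FPKM + 1), fitted to the 13520 genes with at least 0.5 FPKM in at least 3 mice. A gene was called at a false discovery rate (q, Benjamini-Hochberg over all genes tested) below 0.2 where OP was at 1.2-fold of OR or above, or at 0.83-fold or below. By this rule, 0% of all genes tested were higher in OP mice and 0.0222% (3 genes) were lower. *Muc13*, *Muc3* and *Muc4* passed the filter on low values, and 0 of these 3 were called in either direction. At an unadjusted p below 0.05, 0.503% of the genes tested were higher and 3.53% lower in OP mice, and 0 of the 3 members were among them. A fit with no filter on low values tested all 5 members and also placed 0 of them below this unadjusted threshold. All 3 OP mice lay above all 3 OR mice in 1.63% of the genes tested and below them in 6.81%, and 0 of the 5 members were in either set. On the log2 scale 4 members had a higher mean in OP mice and 1 a lower mean. The median difference of the 5 members was 0.20, the value of *Muc1*, beside a median of -0.06 over all genes in the fit with no filter. For the 3 members tested the median was 0.27, beside -0.10 over all genes tested. Without OP 2 the median was -0.03 for the 5 members and 0.33 for the 3 tested, beside -0.12 over all genes tested. Without OP 1 the median of the 5 members was 0.08. Median-of-ratios scaling shifted the median of all genes tested to 0.01 and that of the 5 members to 0.23.

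**Figure D1:**
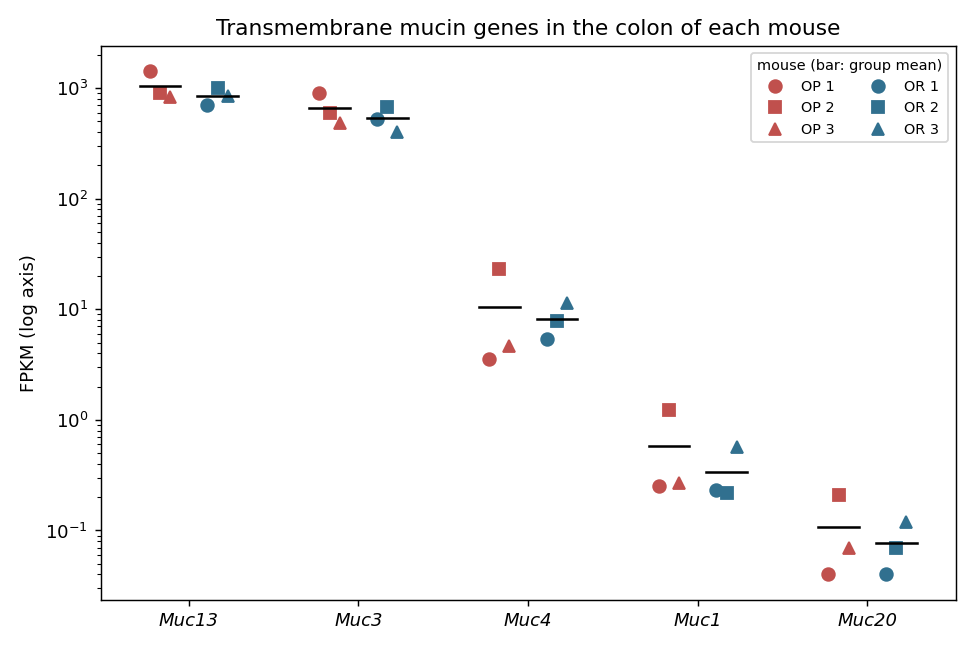
FPKM of the 5 transmembrane mucin genes (horizontal axis) in each mouse on a log axis, with OP mice in red, OR mice in blue and bars at the group means. *Muc13* and *Muc3* lie at 405 or more FPKM in every mouse, the groups overlap for each gene, and OP 2 is the highest mouse for *Muc4*, *Muc1* and *Muc20*.

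*Muc13* had the highest level of the 5 genes in all 6 mice and ranked 105 of the 17778 genes by mean FPKM. In OP mice it was at 1428, 898 and 832 FPKM in mice 1, 2 and 3, and in OR mice at 708, 1003 and 848 FPKM. OP 1 was the highest and OR 1 the lowest mouse, while the other 4 lay within the range from 832 to 1003 FPKM and came from both groups. The log2 fold change of OP over OR was 0.27 (SE 0.25, 95% interval -0.30 to 0.85, limma q = 0.945), which allows anything from a 0.81-fold to a 1.81-fold level in OP mice. A two-sided exact permutation test of the FPKM means gave p = 0.5, where 0.1 is the smallest p that 3 against 3 mice allow. Without OP 1 the log2 fold change of *Muc13* was 0.03 (SE 0.18), and without OP 2 it was 0.37 (SE 0.28, limma q = 0.775).

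*Muc3* followed *Muc13* and ranked 171 by mean FPKM. It was at 909, 595 and 483 FPKM in OP mice 1, 2 and 3 and at 526, 682 and 405 FPKM in OR mice 1, 2 and 3. OP 1 was again the highest mouse, OR 3 was the lowest, and the remaining mice of both groups were interleaved. The log2 fold change was 0.28 (SE 0.28, 95% interval -0.38 to 0.94, limma q = 0.945), with p = 0.6 by the exact permutation test. Without OP 1 it was 0.03 (SE 0.24), and without OP 2 it was 0.33 (SE 0.33). The higher OP means of *Muc3* and *Muc13* thus rested largely on OP 1, but not on it alone. The log2 fold change of *Muc3* was 0.09 without OR 3, and that of *Muc13* was 0.15 without OR 1. *Muc3a*, a separate *Muc3*-like gene, was at 95.2, 155.1 and 194.9 FPKM in OP mice and at 156.2, 109.3 and 176.1 FPKM in OR mice. The log2 fold change of *Muc3a* was -0.02 (95% interval -0.70 to 0.66, limma q = 0.991). OP 1 and OR 2, the mice with the most *Muc3*, had the least *Muc3a*, and the ratio of *Muc3* to *Muc3a* ran from 2.30 to 9.54. The spliced transcripts of *Muc3* and *Muc3a* in the GENCODE annotation of GRCm38 shared 0 of their 50-base words with each other or with any other gene.

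The promoters of *Muc13* and *Muc3* are shown because these genes made up at least 98.4% of the summed FPKM of the 5 members in every mouse. Each runs over 300 bases, of which the last 50 follow the annotated start, 5′ to 3′ on the strand of the gene, from RefSeq on GRCm38.p6, a build other than the one named for the deposited values. That of *Muc13* is chr16:33793787-33794086 on the plus strand, the first of 2 listed starts, and that of *Muc3* is chr5:137165997-137166296 on the minus strand. Capitals mark the word AGGTCA, a binding word of nuclear receptors such as HNF4A, or its reverse complement TGACCT.
Muc13: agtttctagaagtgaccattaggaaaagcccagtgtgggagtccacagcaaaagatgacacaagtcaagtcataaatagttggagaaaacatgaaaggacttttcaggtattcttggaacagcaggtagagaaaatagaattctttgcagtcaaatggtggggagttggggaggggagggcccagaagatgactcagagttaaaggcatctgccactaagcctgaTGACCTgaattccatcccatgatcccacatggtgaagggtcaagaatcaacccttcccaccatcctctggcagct
Muc3: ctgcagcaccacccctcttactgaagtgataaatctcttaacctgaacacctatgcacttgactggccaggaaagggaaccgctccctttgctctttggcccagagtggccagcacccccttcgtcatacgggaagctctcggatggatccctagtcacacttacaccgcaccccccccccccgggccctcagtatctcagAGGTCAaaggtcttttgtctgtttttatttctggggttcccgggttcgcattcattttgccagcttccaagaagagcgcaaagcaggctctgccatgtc
The word begins at position -25 in *Muc13* and at -49 in *Muc3*, counted from the annotated start. AGGTCA was found on either strand in 16.3% of the 32851 mouse promoters of the same length, so its presence is a description of these windows. *Hnf4a* itself was at 351, 340 and 290 FPKM in OP mice and at 288, 309 and 285 FPKM in OR mice (log2 fold change 0.15, limma unadjusted p = 0.290). Of the other words searched on both strands, the TATA box TATAAA, the GC box with the letters GGGCGG and the core word of CDX and posterior HOX factors, spelled CAATAAA, none was present in either promoter.

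Of the 3 members tested, *Muc4* alone changed direction with the choice of mice and with the scaling. It was at 3.52, 23.1 and 4.68 FPKM in OP mice 1, 2 and 3 and at 5.37, 7.79 and 11.5 FPKM in OR mice 1, 2 and 3. OP 2 held the highest value and OP 1 and OP 3 the lowest, so OP mice spanned the whole OR range. The means were 10.4 ± 11.0 FPKM in OP and 8.21 ± 3.07 FPKM in OR mice, with p = 1 by the exact permutation test. The log2 fold change was -0.06 (SE 0.61, 95% interval -1.49 to 1.38, limma q = 0.989), and it carried the opposite sign to the difference of the FPKM means. Without OP 2 it was -0.81 (SE 0.32, 95% interval -1.57 to -0.04, limma unadjusted p = 0.0415, limma q = 0.770). In that fit 4.59% of all genes tested were lower in OP mice at an unadjusted p below 0.05. Without OP 1 it was 0.40 (SE 0.62), without OP 3 it was 0.23, without OR 3 it was 0.19, and with median-of-ratios scaling of all 6 mice it was 0.0573. None of these fits gave a called difference.

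**Figure D2:**
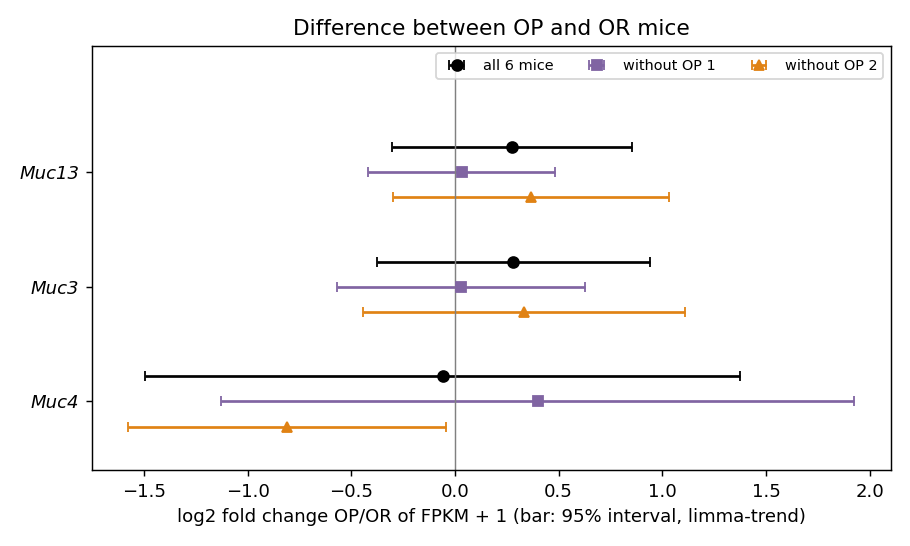
Log2 fold change of OP over OR (horizontal axis, FPKM + 1) with its 95% interval from limma-trend for the 3 members that passed the filter, in all 6 mice, without OP 1 and without OP 2. With all 6 mice each interval includes 0, *Muc13* and *Muc3* move to 0.03 without OP 1, and *Muc4* moves to -0.81 without OP 2.

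*Muc1* stood below 1 FPKM in 5 of 6 mice and passed the minimum of 0.5 FPKM in 2, which left it out of the main test. OP mice were at 0.25, 1.24 and 0.27 FPKM and OR mice at 0.23, 0.22 and 0.57 FPKM. OP 2 and OR 3 were the higher mice, as for *Muc4*, and the other 4 lay between 0.22 and 0.27 FPKM. The difference on the log2(FPKM + 1) scale was 0.20 with all mice and -0.08 without OP 2, with p = 0.5 by the exact permutation test of the FPKM means. In the fit with no filter its 95% interval was -0.39 to 0.78 (limma q = 0.948).

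*Muc20* was the lowest member. It was at 0.04, 0.21 and 0.07 FPKM in OP mice and at 0.04, 0.07 and 0.12 FPKM in OR mice, again highest in OP 2 and next in OR 3. The difference was 0.04 on the log2(FPKM + 1) scale, which understates changes at such levels, and the exact permutation p of the FPKM means was 0.9. *Muc20* lies beside *Muc4* on chromosome 16, on the opposite strand, and 12.1% of the 50-base words of its transcripts also occur, reversed, in those of *Muc4*. Libraries were strand-specific by the study's methods, but whether the counting used the strand is not stated, and *Muc20* stood at 0.74% to 1.50% of *Muc4*. Reads of *Muc4* counted for *Muc20* can therefore not be told apart from *Muc20* transcripts.

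*Muc4*, *Muc1* and *Muc20* were highest in OP 2, and the promoters of *Muc4* and *Muc1* are shown as those of the 3 that hold a word searched. That of *Muc4* is chr16:32735636-32735935 and that of *Muc1* is chr3:89228806-89229105, both on the plus strand of GRCm38.p6 in RefSeq, with the window of the earlier promoters. Capitals mark TATAAA, the core of the TATA box, and GGGCGG, the GC box bound by SP factors.
Muc4: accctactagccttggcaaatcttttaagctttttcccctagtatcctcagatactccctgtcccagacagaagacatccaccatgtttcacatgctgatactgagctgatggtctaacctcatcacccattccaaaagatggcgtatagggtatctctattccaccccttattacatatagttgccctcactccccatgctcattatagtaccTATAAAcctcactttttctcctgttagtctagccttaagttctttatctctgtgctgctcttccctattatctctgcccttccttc
Muc1: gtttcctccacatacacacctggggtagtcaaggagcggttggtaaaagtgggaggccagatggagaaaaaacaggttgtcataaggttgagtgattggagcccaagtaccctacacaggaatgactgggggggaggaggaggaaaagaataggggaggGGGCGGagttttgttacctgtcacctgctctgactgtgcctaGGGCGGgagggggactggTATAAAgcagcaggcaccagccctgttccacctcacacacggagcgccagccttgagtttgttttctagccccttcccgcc
TATAAA begins at position -36 in *Muc4* and at -31 in *Muc1*, and was present in 13.6% of all promoters. GGGCGG occurs 2 times in *Muc1* and in 35.7% of all promoters. CAATAAA was in neither, and in 4.60% of all promoters.

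The order *Muc13*, *Muc3*, *Muc4*, *Muc1*, *Muc20* held within each of the 6 mice. *Muc13* exceeded *Muc3* by 1.35-fold to 2.10-fold in the same mouse, although the ranges of these neighbors over the mice overlapped. *Muc3* exceeded *Muc4* by 25.8-fold to 258-fold, *Muc4* exceeded *Muc1* by 14.1-fold to 35.4-fold, and *Muc1* exceeded *Muc20* by 3.14-fold to 6.25-fold, with ranges that did not overlap. The balance between members did not separate the groups either. The log2 ratio of *Muc3* to *Muc13* was -0.65, -0.59 and -0.78 in OP mice and -0.43, -0.56 and -1.07 in OR mice, a mean difference of 0.01. The log2 ratio of *Muc3* to *Muc4* was 0.39 higher in OP mice, and that of *Muc4* to *Muc13* differed by -0.39. Exact permutation p-values of the 3 ratios were 1, 0.8 and 0.8, and all were 1 after Benjamini-Hochberg adjustment over the 3 pairs.

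*Muc13* and *Muc3* were highest in OP 1, and *Muc4*, *Muc1* and *Muc20* in OP 2. Of 10 pairs of members, *Muc3* and *Muc13* had Pearson's r = 0.84 on log2(FPKM + 1) (permutation p = 0.0611, adjusted over the 10 pairs 0.153) and Spearman's rho = 0.77 (permutation p = 0.103, adjusted 0.407). Leaving out OP 1 and OR 3, the mice farthest from the median of *Muc3*, gave r = 0.77. *Muc4* and *Muc20* had r = 0.96 (permutation p = 0.0222, adjusted 0.153) and rho = 0.85 (permutation p = 0.0444, adjusted 0.407), and r was 0.57 without OP 2 and OR 3. The part of the reversed words shared by *Muc4* and *Muc20* in this correlation was not tested. *Muc1* fell into 4 mice near 0.25 FPKM and the higher OR 3 and OP 2, so no correlation is given for it. No pair passed 0.05 after adjustment.

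The genes most like each member over the 6 mice were searched among 12463 genes with a mean of at least 1 FPKM. For *Muc13* they were *Sdcbp2* (r = 0.997), *Lasp1* (r = 0.992) and *Rlf* (r = 0.991). *Sdcbp2*, which encodes the PDZ protein syntenin-2, was at 576, 266 and 228 FPKM in OP mice and at 187, 309 and 232 FPKM in OR mice, so it shared the peak in OP 1. For *Muc3* they were *Mfn2*, which encodes a mitochondrial fusion protein, *Osbpl3*, an oxysterol-binding protein gene, and *Lcorl*, each with r = 0.99. For *Muc4* they were *Slc35a3* (r = 0.997), *Baiap2* (r = 0.994) and *Nans* (r = 0.994). *Slc35a3* encodes the Golgi transporter of UDP-N-acetylglucosamine and *Nans* the synthase of sialic acid phosphate. *Nans* was at 56.6, 233 and 77.6 FPKM in OP mice and at 77.9, 94.7 and 141 FPKM in OR mice, the same order of mice as *Muc4*. These likenesses are descriptions over 6 points that include the peak of a single mouse.

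Members were also set against the epithelial content of each sample. The mean log2(FPKM + 1) of 15 epithelial genes was 9.08, 8.99 and 8.61 in OP mice and 8.54, 8.99 and 8.80 in OR mice. Relative to this level, the OP minus OR difference was 0.16 for *Muc13*, 0.17 for *Muc3*, -0.17 for *Muc4*, 0.08 for *Muc1* and -0.08 for *Muc20*. The groups overlapped for all 5, and exact permutation p-values ran from 0.4 to 1, all 1 after adjustment over the members. Against 12 genes of surface colonocytes, the mature absorptive cells, the differences of *Muc13* and *Muc3* turned to -0.26 and -0.25. Exact permutation p-values were 0.7 and 0.2. The surface colonocyte list included *Aqp8*, with a log2 fold change of 2.93 and a 108-fold range over the mice. The comparison without *Aqp8* was not made.

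**Figure D3:**
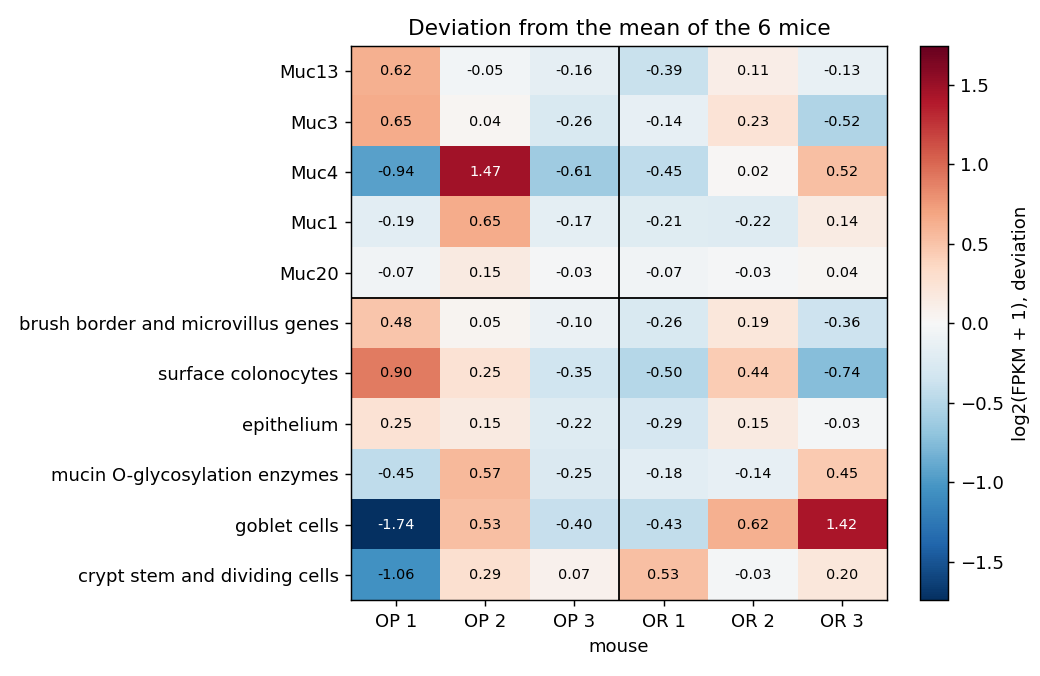
Deviation of each mouse (columns) from the mean of the 6 mice in log2(FPKM + 1), for the 5 members (upper rows) and for the mean of 6 gene lists (lower rows), with red above and blue below the mean. *Muc13* and *Muc3* share their highest mouse, OP 1, with the brush border and surface colonocyte lists, and *Muc4*, *Muc1* and *Muc20* share theirs, OP 2, with the O-glycosylation list.

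Genes with which the transmembrane mucins work were read as lists, by counts and medians beside the median of -0.10 over all genes. None of the genes on these lists was called in either direction, with or without OP 2. Without OP 2, 0% of the 13405 genes then tested were called higher in OP mice and 0.00746% lower. At an unadjusted p below 0.05, 1.28% were then higher and 4.59% lower. The lists then held 1 of 14 brush border genes and 2 of 10 partners below that threshold, all higher in OP mice. Lower ones were 4 of 16 transcription factors, 2 of 25 O-glycosylation enzymes and 1 of 5 other membrane mucins and mucin-like proteins. Of 14 genes of the brush border, on whose microvilli the transmembrane mucins stand, all 14 were tested, 13 had a higher and 1 a lower mean in OP mice, and 0 had an unadjusted limma p below 0.05. Their median log2 fold change was 0.33 (0.35 without OP 2), and 11 of the 14 were highest in OP 1, the mouse with the most *Muc13* and *Muc3*. *Eps8*, which caps actin filaments in microvilli, was at 129, 87.8 and 54.3 FPKM in OP mice and at 41.6, 85.5 and 41.6 FPKM in OR mice (log2 fold change 0.68). *Espn*, which bundles actin, had a log2 fold change of 0.42. The lowest values of the list were those of *Fscn1* (-0.18) and *Plek2* (0.06), which stood at -0.11 and -0.08 without OP 2.

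Receptors, ligands and cytoplasmic partners numbered 11 genes, of which 10 were tested. Means were higher in OP mice for 9 and lower for 1, the median was 0.20 (0.22 without OP 2), and 0 had an unadjusted p below 0.05. *Erbb2*, the receptor partner of MUC4, was at 101, 51.3 and 111 FPKM in OP mice and at 76.9, 77.5 and 44.9 FPKM in OR mice (log2 fold change 0.37). *Erbb3* was at 171, 76.4 and 167 FPKM in OP mice and at 117, 128 and 72.7 FPKM in OR mice (0.33). Without OP 2 the log2 fold change was 0.71 for *Erbb2* and 0.71 for *Erbb3*. Both receptor genes were lowest in OR 3 and OP 2, where *Muc4* was highest. *Gopc*, a Golgi PDZ protein gene, had the lowest log2 fold change (-0.19), followed by *Ap1s2* (0.0015), and these were -0.31 and 0.16 without OP 2. Of partners named for their role after the values were seen, *Met*, the receptor linked to MUC20, was at 12.3, 9.78 and 6.38 FPKM in OP and 6.29, 9.85 and 6.86 FPKM in OR mice, and *Lgals3*, which encodes the mucin-binding lectin galectin-3, ranged from 989 to 2513 FPKM. *Pdzk1*, a scaffold that binds the tail of the human Muc3 counterpart MUC17, was at most 0.13 FPKM in any mouse.

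Proteases of the epithelial surface and sheddases numbered 10, with 4 higher and 6 lower means in OP mice and a median of -0.03 (-0.05 without OP 2). *Mep1b*, a subunit of the protease meprin, was at 136, 167 and 111 FPKM in OP mice and at 114, 99.2 and 73.6 FPKM in OR mice (log2 fold change 0.53, unadjusted p = 0.0387, limma q = 0.945). It was the only gene of this list below an unadjusted 0.05, none was without OP 2, and its groups overlapped between OP 3 and OR 1. *St14*, which encodes matriptase, had a log2 fold change of 0.32, *Mmp14* one of -0.37 and *Adam9* one of -0.16. Without OP 2 those of *Mmp14* and *Adam9* were -0.76 and -0.34.

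The enzymes that build O-linked sugars on mucins numbered 27, of which 25 were tested. Means were higher in OP mice for 6 and lower for 19, the median was -0.17, and 0 had an unadjusted p below 0.05. Without OP 2 the median was -0.32 and 2 of the 25 were lower at that threshold. The enzymes were highest in OR 3 for 12 and in OP 2 for 8 of the 27, and lowest in OP 1 for 14. *B3galt5*, a galactosyltransferase gene, was at 19.2, 146 and 14.5 FPKM in OP mice and at 5.46, 14.9 and 59.9 FPKM in OR mice (log2 fold change 0.96), and *St6galnac6*, a sialyltransferase gene, had a log2 fold change of 0.61. The lowest values were those of *Chst4* (-0.74), a sulfotransferase gene, and *Gcnt4* (-0.71), a branching enzyme gene. These extremes moved without OP 2. The log2 fold change was then -0.06 for *B3galt5*, 0.28 for *St6galnac6*, -1.50 for *Chst4* and -0.28 for *Gcnt4*. The O-glycosylation genes that followed the peak of *Muc4* in OP 2 included *B3gnt7*, at 30.5 FPKM in OP 2 and at most 7.12 in the other mice, and *St3gal6*, at 56.0 FPKM against at most 13.2, both chosen after their values were seen.

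**Figure D4:**
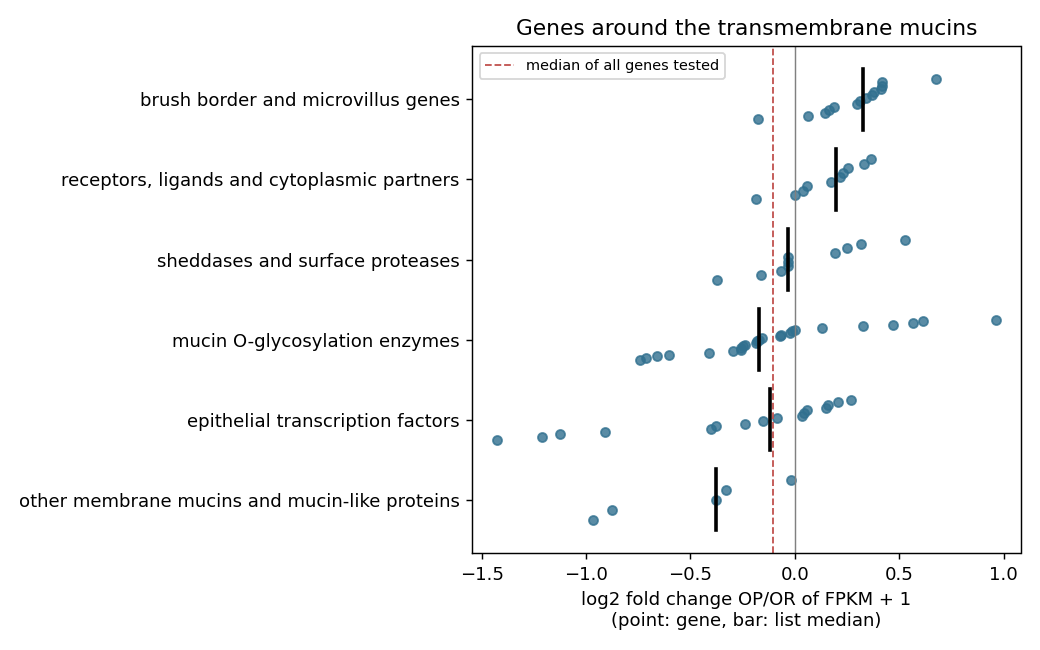
Log2 fold change of OP over OR (horizontal axis, FPKM + 1) of each tested gene of 6 lists around the transmembrane mucins, with black bars at the list medians and a dashed line at the median of all genes tested, -0.10. Medians run from 0.33 for the brush border to -0.38 for the other membrane mucins and mucin-like proteins, a list in which *Muc3a* is at -0.02.

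Of 10 other membrane mucins and mucin-like proteins listed, 7 were measured and 5 tested. On the log2 scale all 5 had lower means in OP mice, with a median of -0.38 (-0.44 without OP 2), the value of *Mcam*. Of the genes tested only *Muc3a*, at -0.02, carries a *Muc* symbol. *Emcn* (-0.97, unadjusted p = 0.0167, limma q = 0.945) and *Podxl* (-0.87, unadjusted p = 0.0113, limma q = 0.933) were below an unadjusted 0.05. Both encode sialomucins of blood vessels. Of the 10 blood endothelium genes, a list that includes *Emcn* itself, 9 were lower at the same threshold with a list median of -0.80. The part of endothelial content in the values of *Emcn* and *Podxl* was not tested. *Muc3a* and *Cd164* (-0.33) were the highest of the list. Of 5 secreted mucins listed, 3 were measured, and *Muc2*, the gel-forming mucin of goblet cells, was at 17.6, 563 and 188 FPKM in OP mice and at 154, 276 and 933 FPKM in OR mice (log2 fold change -1.45, limma q = 0.945). Its log2 fold change was -2.53 without OP 2 and -0.07 without OP 1. OP 1, with the most *Muc13* and *Muc3*, had the least *Muc2*. *Muc5ac* and *Muc6* were at most 0.13 FPKM.

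Of 17 epithelial transcription factors, 16 were tested, 7 with a higher and 9 with a lower mean in OP mice, and the median was -0.12 (-0.23 without OP 2). *Klf5* was the only factor of this list with an unadjusted p below 0.05 (log2 fold change -0.40, unadjusted p = 0.0428, limma q = 0.945). It was named after its values were seen. *Klf4* (0.27) had the highest and *Atoh1* (-1.43) and *Spdef* (-1.21), which direct the secretory and goblet cell fates, the lowest log2 fold changes. Without OP 2 these were -0.04 for *Klf4*, -2.06 for *Atoh1* and -2.11 for *Spdef*. Of the 17 factors, 11 were lowest in OP 1.

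Markers of the cell types that colon tissue holds are given as measured beside the members. Medians were 0.10 for epithelium and 0.37 for surface colonocytes, both with positive sign like *Muc13* and *Muc3*. They were -1.17 for goblet cells and -0.48 for crypt stem and dividing cells, each with all 10 genes at a lower mean in OP mice. The summed level ran from 12368 to 16325 FPKM in OP and from 12172 to 15388 FPKM in OR mice for the 15 epithelial genes, and from 12564 to 27557 and from 12643 to 24455 FPKM for the 12 surface colonocyte genes. For the 10 goblet cell genes it ran from 1174 to 5176 FPKM in OP and from 1881 to 7458 FPKM in OR mice, and no gene of these 3 lists was at 0 in any mouse. Goblet cell genes were highest in OR 3 for 9 of 10 and lowest in OP 1 for 8 of 10, and crypt genes were lowest in OP 1 for all 10. For cells outside the epithelium, medians were -0.74 for fibroblasts, -0.91 for macrophages, -0.32 for smooth muscle, -0.83 for adipocytes, -0.18 for mesothelium and 0.21 for B cells and plasma cells. The mesothelium median covers the 4 of 7 genes tested. One of them, *Krt19*, is also on the epithelium list, and *Msln*, *Upk3b* and *Upk1b* were at most 3.28 FPKM in any mouse. Without OP 2, medians were 0.09 for epithelium, 0.33 for surface colonocytes, -1.55 for goblet cells and -0.67 for crypt cells. They were then -0.72 for fibroblasts, -0.69 for macrophages, -0.47 for smooth muscle, -0.30 for adipocytes, 0.05 for mesothelium, 0.50 for B cells and plasma cells and -0.72 for blood endothelium. At an unadjusted p below 0.05, 7 of 10 fibroblast genes and 8 of 10 macrophage genes were lower in OP mice, and without OP 2 these counts were 5 and 4, with 4 of 10 for blood endothelium. Counts of lower genes rose without OP 2 from 2 to 4 of 10 for goblet cells, from 0 to 5 of 10 for crypt cells and from 0 to 2 of 10 for smooth muscle. Of the B cell and plasma cell genes 1 of 6 was lower, and without OP 2 1 was lower and 2 were higher, while of 8 adipocyte genes 1 was lower, and without OP 2 1 was higher. The part of cell content in the levels of the members was not tested beyond the comparison with the epithelial genes.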

How the data were processed

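RNA of the colon from 3 OP and 3 OR mice, enriched for mRNA, was sequenced by the authors in strand-specific libraries. They used Bowtie2 to align the reads to a set of reference genes and RSEM to estimate expression, and the submitters' notes also name HISAT2 and GRCm39. The deposited values are FPKM per gene and mouse with 2 decimals, so read depth is unknown and a count test was not possible. Here, FPKM was used as deposited on log2(FPKM + 1), which understates the change of low genes. Genes with at least 0.5 FPKM in at least 3 mice were fitted with limma 3.58.1 (trend, no covariate) in R 4.3.3, with Benjamini-Hochberg adjustment. Single values were compared by two-sided exact permutation tests in SciPy 1.17.1, with 20 arrangements. The fit was tested on simulated data. P-values measure the spread between these mice.

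The members and gene lists were chosen with earlier results of these data known. Named genes were all members, the highest and lowest 2 tested genes by log2 fold change of each list around the mucins, and the 3 genes most like each tested member. The value of 1 gene that this rule names is not reported here. Marker lists are given by counts, medians and summed levels, and single genes of them are named to check the tissue or as chosen after their values were seen. The order of replicate numbers carried no pairing: deviations of mice with the same number had r of -0.14, -0.16 and 0.07. Between mice of different numbers, r was 0.54 for OP 1 and OR 2, 0.42 for OP 3 and OR 1 and 0.39 for OP 2 and OR 3. It was negative for the other combinations, and the cause was not tested. Transcript overlap was read from GENCODE on GRCm38, which is not the authors' gene set. All 5 members matched a RefSeq promoter. Alternatives covered scaling, pseudocount, filter, sample weights, replicate block and leaving out each mouse, and those without OP 2 for lists and correlations were chosen after seeing the data.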

Additional observations from a re-analysis of the deposited data

How the results depend on the processing

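No member was called in either direction under any alternative run. With the call set at an unadjusted p below 0.05 in place of q, 68 genes of the whole table were higher in OP mice and 477 lower. The 3 genes called lower became 0 with median-of-ratios scaling, TPM, no filter, a minimum of 1 FPKM in every mouse, a pseudocount of 0.1 and the replicate block, 5 with sample weights, and 0 to 1 when each mouse was left out (1 without OP 2). The replicate block left the members' differences as they were. *Muc4* changed sign to 0.0573 with median-of-ratios scaling and to 0.44 with sample weights, and ran from -0.81 to 0.40 over the left-out mice. Over these, *Muc1* ran from -0.0787 to 0.34 and *Muc20* from -0.0288 to 0.0804. Relative to surface colonocytes, *Muc1*, *Muc3* and *Muc13* turned to -0.34, -0.25 and -0.26 (exact permutation p = 0.6, 0.2 and 0.7). Relative to epithelium, *Muc20* turned to 0.0474 with a pseudocount of 0.1, and left-out mice gave -0.15 to 0.32 for *Muc1*, -0.0352 to 0.28 for *Muc3*, -0.88 to 0.38 for *Muc4* and -0.20 to 0.0576 for *Muc20*. The log2 ratios ran from -0.38 to 1.28 for *Muc3* to *Muc4*, -0.18 to 0.14 for *Muc3* to *Muc13* and -1.32 to 0.38 for *Muc4* to *Muc13*. The cause was not tested. The median of the members turned to -0.0288 without OP 2, and limma without trend called 2 genes lower. With 3 mice a group the smallest exact permutation p is 0.1, and the interval of *Muc4* spans 0.36-fold to 2.60-fold.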

Other observations

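*Muc16*, a transmembrane mucin of the mesothelium and of moist epithelia that is not among the 5 members, was at 0.89 FPKM in OP 1 and 0.74 FPKM in OR 2 and at most 0.14 FPKM in the other 4 mice. The same pair of mice had the highest *Muc3* and *Muc13*. They were also the highest in *Slc37a2*, at 29.0 and 34.0 FPKM against at most 1.58 in the other mice, and in *Car1*, the carbonic anhydrase of surface colonocytes, at 14585 and 15723 FPKM against at most 6339. These genes were chosen after their values were seen, and the pair held a mouse of each group. The mean log2(FPKM + 1) of the surface colonocyte list was also highest in OP 1 and OR 2, at 8.99 and 8.53. It was 8.34 in OP 2 and at most 7.73 in the other mice. Single genes of the list were divided. Of its 12 genes, 4 were highest in OP 1 and 3 in OP 2. *Car4*, for example, was at 808 FPKM in OP 2 and at 372 and 255 FPKM in OP 1 and OR 2.

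In OP 2, with the highest *Muc4*, *Muc1* and *Muc20*, the surface protease gene *Tmprss2* was at 206 FPKM, with 36.9 to 114 FPKM in the other mice. *Adipoq* was listed at 0 in OP 2 and at 2.81 to 18.5 FPKM in the other mice.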
